A study of Mus musculus with 16 samples.

Results

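The response of 3T3-L1 cells to 2 h of dexamethasone (dex) was described across genes, from the 8 arrays whose sample titles name dex or its DMSO vehicle at 2 h, of the 16 arrays in the series. 3T3-L1 is a mouse preadipocyte line, derived from fibroblasts and able to become adipocytes in culture, and dex is a synthetic glucocorticoid. The groups compared were 4 arrays of cells given dex for 2 h and 4 of cells given DMSO for 2 h, and the other 8 arrays hold the same treatments after 36 h. The labels call the 4 samples of each group biological replicates, and the dose of dex is not stated in these sources. Each array carried total RNA of 1 sample labelled with Cy5 against a pool of the samples labelled with Cy3. Every value is therefore a log ratio of sample over pool, which compares samples for 1 probe and gives no level of a gene. For the same reason the labelled cell type could not be checked through the level of its markers.

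Glucocorticoids enter the cell and bind the glucocorticoid receptor, which moves to the nucleus and binds DNA at short palindromic elements or through other transcription factors. Within the first hours the receptor raises the transcription of some genes and represses others, among them many inflammatory genes. In preadipocytes a glucocorticoid is part of the usual mixture that starts adipocyte differentiation.

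Dex changed 294 of 19640 measured genes within 2 h, or 1.5%. Of these 194 rose (0.988% of all genes) and 100 fell (0.509%), and 0 had probes that passed in both directions. The test was limma, a linear model fitted to all probes of the 8 arrays, and a gene was counted when a probe specific to it reached an adjusted p under 0.05. The rises were larger than the falls, since 91 genes rose and 28 fell by at least 1 on the log2 scale, which is a fold change of 2. A change of at least 2 on that scale was reached by 12 rises and by 1 fall, that of the chemokine gene Cxcl5. Among genes that rose, the median change was 0.96, and the median gene lay at 0.55 in dex and -0.43 in DMSO arrays against the pool. The median fall was -0.84, from 0.33 in DMSO to -0.52 in dex.

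The 2-hour arrays were noisy and unequal. The SD of the probes about their group mean was 0.24, 0.39, 0.19 and 0.24 in dex replicates 1 to 4, and 0.39, 0.33, 0.21 and 0.51 in DMSO replicates 1 to 4. At 36 h it lay between 0.13 and 0.24. Replicate 4 of DMSO had a mean correlation of -0.10 with the other arrays of its group across probes, where the other 3 had 0.07 to 0.20. Leaving out 1 array gave between 135 and 338 genes. The count was 135 without dex replicate 3, 144 without dex replicate 4, 154 without DMSO replicate 3 and 179 without dex replicate 1, and falls also dropped to 62 without dex replicate 2 and 57 without DMSO replicate 2. Without the 3 noisiest arrays (DMSO replicates 4 and 1 and dex replicate 2) it was 297, of which 161 rises and 64 falls were also found with all 8 arrays.

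**Figure D1:**
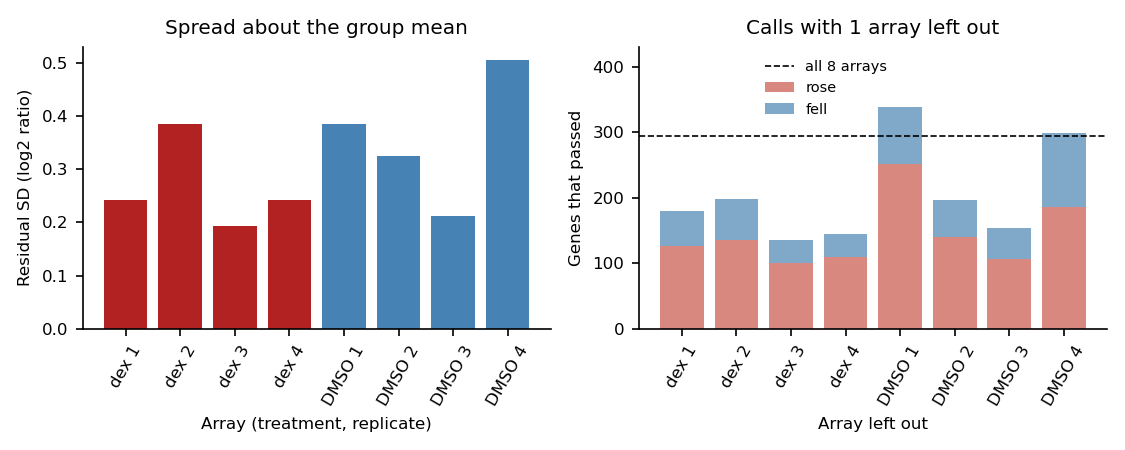
Left, SD of the probes about their group mean for each 2-hour array, on the log2 ratio scale, with dex arrays in red and DMSO arrays in blue. Right, number of genes that passed when the array named on the axis was left out, stacked as rises and falls, with a dashed line at the 294 genes of all 8 arrays; the lowest bar, without dex replicate 3, stands at 135.

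Of the 194 rises, 99 passed in each of the 8 fits that left out 1 array, and of the 100 falls 33 did. None of these 8 fits kept the rises of Med13, Tlr4 and Gramd3 or the falls of Kcnk3, Sema7a, Ccdc85b, Bcorl1 and Slc38a2. Of the other genes named below, Dusp6, Znrf1, Kitl, Acsl4, Il6ra, Ddr1, Rarg, Socs1, Fosl1, Csf1, Fgf7, Bcl2l11 and Gata2 passed in 1 of them. Sesn1, Klf5, Adamts9, Il15ra, Tnfrsf1b, Aldh1a1, Peli2, Cdk6, Ier5l, Cdkn2b, Cxcl12, Irs1, Ephb3, Hbegf, Pfkfb3 and Prox1 passed in 2. In the quoted probe of all 294 genes, the dex and DMSO arrays did not overlap. Among all 38467 probes such a separation occurred for 2264, or 5.89%, of which 1182 were upward and 1082 downward. Separation alone was thus much more common than a passed test, and 2277 probes had an unadjusted p under 0.05.

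Glul, which encodes the glutamine-forming enzyme glutamine synthetase, had the largest rise. Its log2 ratio was 1.52, 1.46, 1.43 and 1.43 in dex replicates 1 to 4 and -1.26, -1.19, -2.01 and -2.05 in DMSO replicates 1 to 4. The dex arrays were within 0.1 of each other, and the DMSO arrays formed a high and a low pair. The change was 3.09 ± 0.21 (SE of the fitted difference, n = 4 arrays per group here and throughout, limma adjusted p = 3.48e-04). Slc45a3, a solute carrier gene, showed the same form, with 1.27, 1.31, 1.20 and 1.18 in dex and -1.29, -1.57, -2.26 and -2.03 in DMSO. It rose by 3.03 ± 0.20 (adjusted p = 3.48e-04).

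Several of the next largest rises were of regulators that restrain signalling. Tsc22d3 encodes the glucocorticoid-induced leucine zipper, which binds NF-kappaB and AP-1 proteins. In dex arrays it stood at 1.34, 1.20, 1.26 and 1.30 and in DMSO arrays at -0.97, -1.59, -1.68 and -1.69, a rise of 2.76 ± 0.16 (adjusted p = 2.42e-04). Dusp1, a phosphatase that inactivates MAP kinases, was at 1.29, 1.29, 1.34 and 1.26 in dex and at -0.76, -1.42, -1.37 and -1.29 in DMSO, and rose by 2.50 ± 0.15 (adjusted p = 2.42e-04). In both genes DMSO replicate 1 was the highest vehicle array, still far below every dex array. Errfi1, an inhibitor of ERBB receptors, rose by 2.19 ± 0.21, with dex arrays between 0.51 and 1.09 and DMSO arrays between -1.71 and -0.79.

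Zbtb16, a BTB zinc finger transcription factor, had dex values of 0.86, 1.14, 1.12 and 1.06 and DMSO values of -1.45, -1.64, -1.80 and -1.64. Its rise of 2.67 ± 0.11 had one of the lowest adjusted p values of the comparison (9.44e-05), shared with Rhob. Rhob encodes a small GTPase that acts on actin and endosomes. It stood at 0.85, 0.96, 0.94 and 0.87 in dex and -1.22, -1.48, -1.57 and -1.42 in DMSO, and rose by 2.32 ± 0.10. The groups of these 2 genes were each tight and lay over 2 units apart at their nearest points.

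Fkbp5, a co-chaperone that lowers the hormone binding of the glucocorticoid receptor, rose by 2.36 ± 0.13 with dex arrays from 0.72 to 0.94 and DMSO arrays from -1.75 to -1.20. The other large rises were of Tcim (2.21 ± 0.20), the secreted protease gene Adamts15 (2.16 ± 0.22), the adenylyl cyclase gene Adcy3 (2.07 ± 0.14), the poly(A) polymerase family gene Tent5b (2.06 ± 0.20), Zcchc14 (1.94 ± 0.15) and Plxdc1 (1.93 ± 0.15). Nr3c1, which encodes the glucocorticoid receptor itself, did not pass. Its ratio was -0.60, -0.44, -0.52 and -0.43 in dex and 0.42, -0.17, -0.25 and -0.06 in DMSO, a difference of -0.48 ± 0.15 (adjusted p = 0.409). The groups did not overlap, with DMSO replicate 1 well above the other vehicle arrays.

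**Figure D2:**
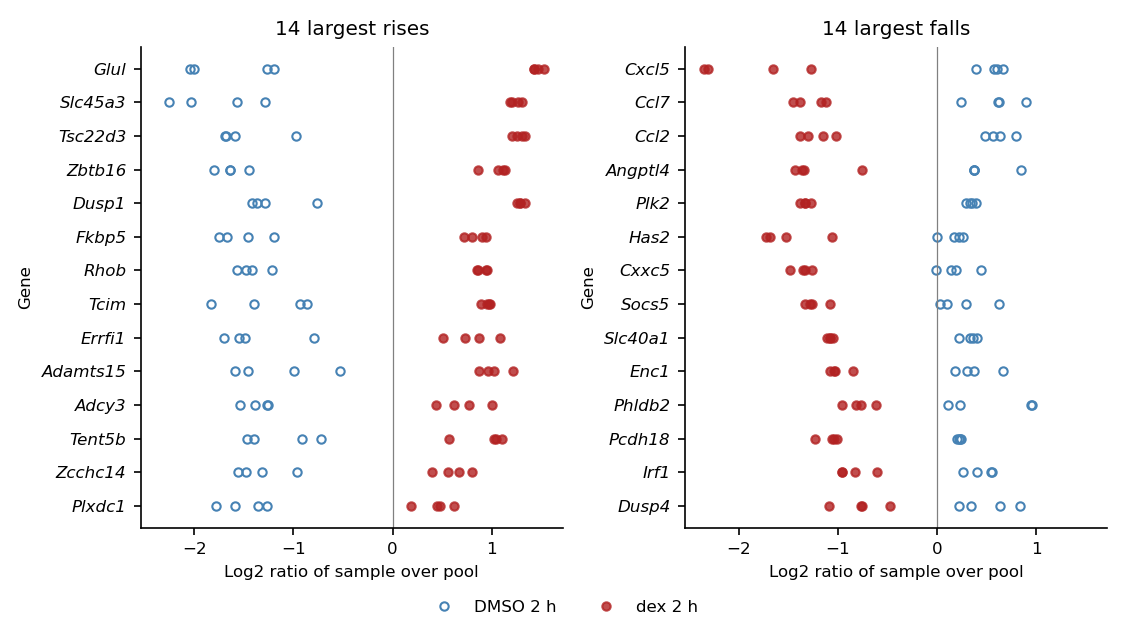
Log2 ratio of sample over pool in each 2-hour array for the 14 largest rises (left) and the 14 largest falls (right), ordered by size from the top, with filled red points for dex and open blue points for DMSO. The groups are apart in every row, as they were for all genes that passed. The widest gap is that of Glul, with dex at 1.43 to 1.52 and DMSO at -2.05 to -1.19.

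Chemokine genes led the falls. Chemokines are small secreted proteins that attract leukocytes. Of 35 measured CC, CXC and CX3C chemokine genes 4 fell and 0 rose, or 11.4%. Cxcl5, which attracts neutrophils, was at -1.27, -1.65, -2.35 and -2.30 in dex and 0.67, 0.60, 0.40 and 0.57 in DMSO. It fell by 2.45 ± 0.24 (adjusted p = 0.00229), and here the spread lay in the dex group. Ccl7 and Ccl2, which attract monocytes, fell by 1.87 ± 0.15 and 1.83 ± 0.12. In Ccl7 the dex arrays ran from -1.45 to -1.12 and the DMSO arrays from 0.24 to 0.90, and in Ccl2 from -1.38 to -1.02 and from 0.48 to 0.80. The remaining fall was that of Cxcl12, which guides blood cell precursors, with a smaller fall of 0.53 ± 0.09. The chemokine count was 3 or 4 in the fits with 1 array left out.

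The tightest large falls were of genes with other roles. Plk2, a polo-like kinase, was at -1.39, -1.27, -1.33 and -1.33 in dex and 0.36, 0.30, 0.40 and 0.33 in DMSO, a fall of 1.68 ± 0.08 (adjusted p = 1.25e-04). Slc40a1 encodes ferroportin, the exporter of iron from cells. Its arrays were at -1.08, -1.08, -1.05 and -1.11 in dex and 0.41, 0.34, 0.23 and 0.36 in DMSO, a fall of 1.41 ± 0.08 (adjusted p = 2.42e-04). The dex arrays of both genes differed by little over 0.1 at most, noisy arrays included. Pcdh18, a protocadherin gene, fell by 1.31 ± 0.09.

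Angptl4, which encodes an inhibitor of lipoprotein lipase, fell by 1.72 ± 0.18, and both its groups had replicate 1 as the highest array, at -0.76 in dex and 0.85 in DMSO. Has2, an enzyme that makes hyaluronan, fell by 1.66 ± 0.16, and Cxxc5, a zinc finger gene, by 1.55 ± 0.12. Socs5, a suppressor of cytokine signalling, fell by 1.5 ± 0.14, the cytoskeletal gene Enc1 by 1.38 ± 0.12 and Phldb2 by 1.35 ± 0.21. The fall of Phldb2 passed in 3 of the 8 fits with 1 array left out. Irf1, a transcription factor of the interferon response, fell by 1.28 ± 0.12, and Dusp4, a further MAP kinase phosphatase, by 1.28 ± 0.17.

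Genes that carry growth factor signals fell more often than they rose. Of 110 measured receptor tyrosine kinases and their ligands 9 fell and 2 rose, or 10% against 1.5% of all genes. The ligands that fell were Fgf7 (-1.02), Pdgfb (-1.0), Ereg (-0.94), Hbegf (-0.90), Csf1 (-0.89) and Pdgfa (-0.68), and the receptors were Ephb3 (-0.83), Pdgfrb (-0.74) and Ddr1 (-0.48). Pdgfb encodes a platelet-derived growth factor chain and Pdgfrb its receptor, and Hbegf and Ereg are ligands of ERBB receptors. Pdgfb had dex values of -0.38, -0.61, -0.85 and -0.77 and DMSO values of 0.41, 0.38, 0.36 and 0.25, with tight vehicle arrays. In Fgf7 the 4 dex arrays lay between -1.09 and -0.72, while DMSO replicate 1 was at 0.70 and the other 3 between -0.06 and -0.01. The rises were of Mertk (1.31 ± 0.11), a receptor for dying cells, and the KIT ligand gene Kitl (0.71 ± 0.12). The family's count was 3 or 4 without any 1 array of dex or without DMSO replicate 2 or 3, 10 without DMSO replicate 1 or 4, and 9 without the 3 noisiest arrays. Its median change over all measured members was -0.01, which is also that of all genes.

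Feedback inhibitors of signalling changed in both directions. Of 63 such genes, which act on receptor kinase, cytokine, NF-kappaB and BMP signals, 6 rose and 5 fell, or 17.5%. The rises were of Tsc22d3, Errfi1, Dok1, Peli1, Nfkbia and Peli2, and the falls of Socs5, Socs3, Grem1, Socs1 and Spry2. Dok1, a docking protein that dampens tyrosine kinase signals, was at 1.10, 1.03, 0.93 and 1.03 in dex and -0.64, -0.70, -0.77 and -0.76 in DMSO, and rose by 1.74 ± 0.08 (adjusted p = 1.25e-04). Nfkbia, the inhibitor that holds NF-kappaB in the cytoplasm, rose by 1.24 ± 0.15. Socs3, which blocks JAK kinases, was at -0.68, -0.45, -0.56 and -0.67 in dex and at 1.0, 0.26, 0.42 and 0.41 in DMSO, and fell by 1.11 ± 0.16 (adjusted p = 0.0161). Here again DMSO replicate 1 stood above the other vehicle arrays. The family's count was 7 without dex replicate 1, 3 or 4 or DMSO replicate 3, 8 to 13 without the other arrays, and 11 without the 3 noisiest arrays.

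Of 23 dual-specificity phosphatases, which remove phosphate from MAP kinases, Dusp1 and Dusp6 (0.85 ± 0.14) rose and Dusp4 fell. This count of 3 dropped to 1 without dex replicate 1 or 4, and to 2 without dex replicate 2 or 3 or DMSO replicate 2, 3 or 4. Of 64 regulators of insulin, PI3K, AKT and mTOR signalling 5 rose and 1 fell, or 9.4%. Ddit4 (1.52 ± 0.14) and Sesn1 (1.47 ± 0.22) encode inhibitors of the growth kinase mTORC1, Foxo3 (1.44 ± 0.10) a forkhead factor that AKT restrains, Eef2k (1.17) a kinase that slows translation, and Sgk1 (0.74 ± 0.09) a kinase related to AKT. The fall was of Irs1 (-0.73 ± 0.11), the adaptor of the insulin receptor. This family's count of 6 was 3 without dex replicate 3, 4 to 7 without the other arrays (exceeding 4 without dex replicate 2 or DMSO replicate 1 or 4) and 7 without the 3 noisiest arrays.

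Of 74 genes of the SMAD, TGF-beta and BMP family 1 rose and 5 fell, or 8.11% against 1.5% of all genes. The rise was of the receptor gene Acvrl1 (1.84 ± 0.19). The falls were of the BMP antagonist gene Grem1 (-0.84 ± 0.08), the activin subunit gene Inhba (-0.75 ± 0.12), Tgfb3 (-0.68), Id2 (-0.61 ± 0.08) and Bmp2k (-0.53), which is a kinase induced by a BMP and no ligand. The count of 6 was 2 without dex replicate 3 or 4, 3 without DMSO replicate 3, 4 to 9 without the other arrays and 8 without the 3 noisiest arrays. Of 76 interleukin and cytokine receptors 5 rose and 1 fell, or 7.9%. Lifr (0.84 ± 0.09), Il15ra (0.76 ± 0.11), Tnfrsf1b (0.69), Il6ra (0.54) and Tlr4 (0.53) were higher and Tnfrsf12a (-0.69 ± 0.10) was lower, but this count of 6 was 1 without dex replicate 3 or 4 or DMSO replicate 3, 2 or 3 without dex replicate 1 or 2 or DMSO replicate 2, and 3 without the 3 noisiest arrays.

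Families of transcription factors differed in their share of changed genes. The homeobox factors in the list used, which was made from gene symbols, lay near the 1.5% of all genes. Among these 114 there was 1 fall (0.877%), that of Tgif1. The list lacked some homeobox genes, among them Prox1, which also fell (-0.72), so the share holds for the list alone. The count in the list was 2 without the 3 noisiest arrays and 0 to 7 over all alternatives. Of 39 forkhead factors Foxo3 alone passed, or 2.56%, also near the share of all genes. Immediate early genes, which respond to growth factors within minutes, had the highest share, with 5 rises and 3 falls among 31, or 25.8%. Csrnp1 (1.61 ± 0.14), Klf5 (1.32 ± 0.22), the matricellular gene Ccn1 (1.23 ± 0.09), the orphan receptor gene Nr4a1 (1.16 ± 0.15) and Fosl2 (0.74) rose, and Klf10 (-0.90 ± 0.13), Fosl1 (-0.84 ± 0.14) and Ier5l (-0.52) fell. Fosl1 and Fosl2 both encode FOS-type partners in AP-1 and thus changed in opposite directions. This count of 8 was 2 to 4 without dex replicate 1, 3 or 4 or DMSO replicate 2 or 3, 6 to 9 without the others, and 8 without the 3 noisiest arrays.

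Of 51 basic leucine zipper and related genes 4 rose and 1 fell, or 9.8% against 1.5% of all genes. Beside Tsc22d3 and the FOS-type genes these were Cebpb (1.02 ± 0.12) and Cebpd (0.93 ± 0.13), the early factors of adipocyte differentiation. Cebpb was at 0.62, 0.60, 0.77 and 0.86 in dex and -0.09, -0.52, -0.22 and -0.40 in DMSO. Of 42 nuclear receptors 9.52% passed. Vdr, the vitamin D receptor (1.66 ± 0.15), and Nr4a1 rose, and Nr2f2 (-0.76 ± 0.08) and the retinoic acid receptor gene Rarg (-0.58 ± 0.11) fell. Of 89 basic helix-loop-helix and related genes the growth regulator Myc (1.10 ± 0.15), the clock gene Per1 (1.06 ± 0.11) and Twist2 (0.72) rose. The clock repressor gene Bhlhe40 (-1.11 ± 0.15) and Id2 fell, so that 5.62% of these genes passed. Without dex replicate 3 or 4 or DMSO replicate 3, the leucine zipper count was 2 and the helix-loop-helix count 1 to 3. Both SOX genes that changed among 19 (10.5%), Sox11 (1.11 ± 0.13) and Sox4 (0.89 ± 0.10), rose.

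Cell state genes were split. Of 59 stress, growth arrest and DNA damage genes 4 rose and 3 fell, or 11.9% against 1.5% of all genes. Gadd45g (1.75 ± 0.12) rose while its relative Gadd45a (-0.85 ± 0.10) fell. The cell cycle inhibitor gene Cdkn1a (0.85) rose and Cdkn2b (-0.52), which encodes another such inhibitor, fell. The count of 7 was 5 to 9 over the fits with 1 array left out. Of 39 cyclins and cyclin-dependent kinases Cdk6 (0.50 ± 0.08) was the 1 that passed, or 2.56%, near the share of all genes.

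Metal handling genes had 5 rises and 2 falls among 48, or 14.6%, and this count was 6 or 7 in every fit with 1 array left out. Metallothioneins bind zinc and copper. Mt2 was at 1.06, 0.61, 1.02 and 1.02 in dex and -0.58, -0.97, -0.75 and -0.96 in DMSO, and rose by 1.74 ± 0.14 (adjusted p = 0.00102). The probes named Mt4 and Mt1 rose by 1.55 and 1.37. Metallothionein genes are close in sequence, so which of them each probe measured is uncertain. The zinc importer gene Slc39a14 (1.58 ± 0.10) and Lcn2 (1.57), which binds iron carriers, also rose. The iron exporter gene Slc40a1 fell, as did Hmox1 (-0.81 ± 0.11), whose enzyme frees iron from heme.

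Of 82 genes of glycerolipid and fatty acid handling 5 rose and 1, Angptl4, fell, or 7.3% against 1.5% of all genes. Pdk4 (1.73 ± 0.12) encodes a kinase that turns cells from glucose to fatty acid oxidation, Fabp4 (1.60 ± 0.18) a fatty acid carrier of adipocytes, Vldlr (1.26) a lipoprotein receptor, Lpin1 (1.05) a phosphatidate phosphatase and Acsl4 (0.67) a fatty acyl-CoA synthetase. The count was 5 or 6 in every fit with 1 array left out and 7 without the 3 noisiest arrays. The family's median over all measured members was 0.05, against -0.01 for all genes.

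Of 74 ADAM, ADAMTS, MMP and TIMP genes 3 rose and 2 fell, or 6.76%. The proteases of the ADAMTS group Adamts15, Adamts1 (1.42 ± 0.08) and Adamts9 (1.22) rose, and Adam19 (-1.06 ± 0.09) and Mmp28 (-0.89 ± 0.09) fell. The other probes of Adamts9 gave 0.87, 0.38 and 0.09, and none of them passed. Of 41 collagen chains 0 passed in limma, although 3 reached an unadjusted p under 0.05. In the same way 0 of 89 histone acetylation and methylation enzymes passed (11 unadjusted), and 0 of 80 prostaglandin, phospholipase and annexin genes (4 unadjusted). The unadjusted counts here and below used each gene's probe with the smallest p, so genes with several probes had more chances. Since 1.5% of all genes passed, few or none would be counted in sets of these sizes.

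**Figure D3:**
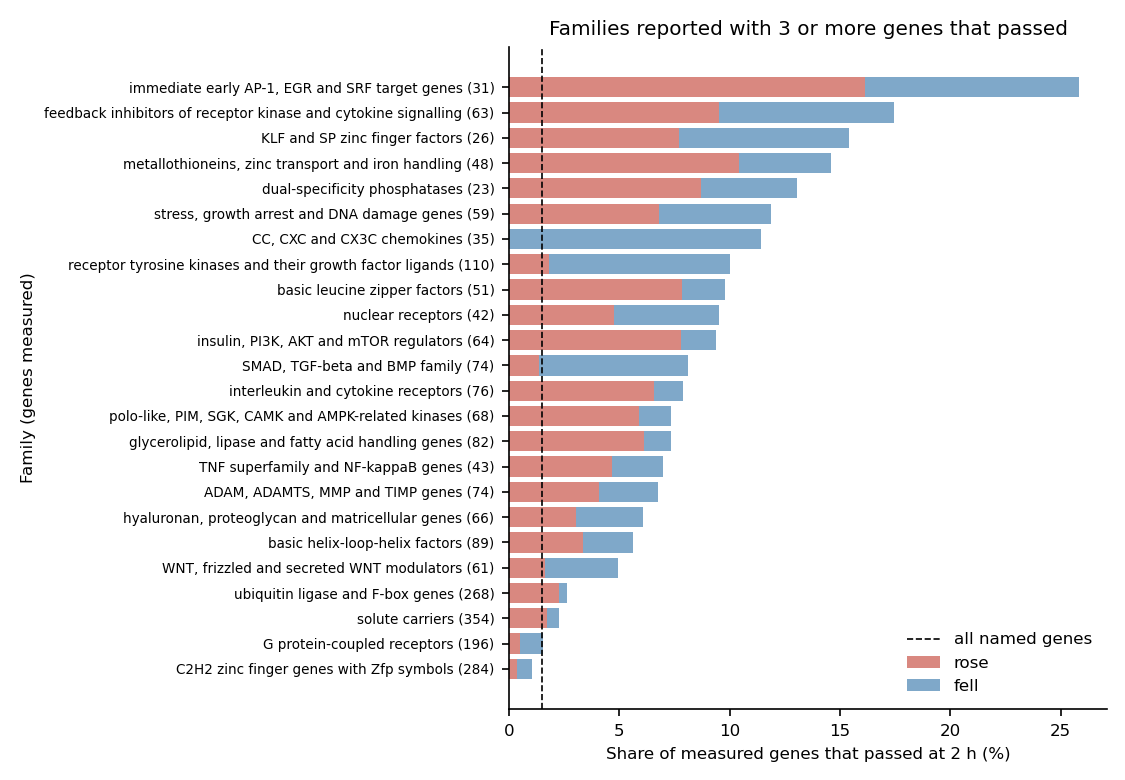
Share of the measured genes of each family that rose (red) and fell (blue) at 2 h, in percent, for the reported families with at least 3 genes that passed, with the number measured in brackets and a dashed line at the 1.5% of all named genes. Immediate early genes are at the top with 25.8%, chemokines have falls alone, and C2H2 zinc finger genes and G protein-coupled receptors lie near the line.

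Among families for general cell functions, none of 40 cytosolic ribosomal proteins, 47 proteasome subunits and 93 respiratory chain subunits passed in limma. An unadjusted p under 0.05 was reached by 0, 3 and 4. At the 1.5% share of all genes, families of these sizes would hold few or none. Of 836 olfactory receptors, the odorant receptors of the nose, 1 passed, or 0.12%. It was Olfr700, which rose by 1.48 ± 0.17 and by 2.19 ± 0.10 at 36 h. Of 284 zinc finger genes with Zfp symbols 3 passed, or 1.06%, and of 196 G protein-coupled receptors 3 passed, or 1.53%, both near the share of all genes.

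No marker of macrophages (14 genes), endothelium (12) or epithelium (13) passed in limma, with 0, 1 and 1 at an unadjusted p under 0.05. With 1.5% of all genes passing, lists this short would mostly hold none. Of 16 fibroblast and preadipocyte markers Pdgfrb fell. The summed log ratio of these 16 ran from -1.70 to -0.22 in dex and from 0.53 to 1.31 in DMSO arrays, without overlap. Each gene entered the sum by its probe with the smallest p in this comparison, so the sum cannot show a shift of the set. Of the 16, 1 had an unadjusted p under 0.05 in limma. The median of their changes, each averaged over a gene's probes, was -0.04. The part of this sum in the other results was not tested. The macrophage sum, formed in the same way, ran from -0.50 to 0.39 in dex and from -2.35 to 2.67 in DMSO.

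Elements known to bind the receptor were looked for in the RefSeq promoter windows of mouse assembly GRCm38.p6, which run from 250 bases before to 50 after a gene's start. Windows were at hand for 143 of the 194 genes that rose, 68 of the 100 that fell and 15191 measured genes. The palindromic glucocorticoid response element, searched on both strands as GNACANNNTGTNC, occurred in windows of 4 genes that rose (2.80%), 0 that fell and 75 of all measured genes (0.494%). By window it was in 2.06% of 194 windows of risen genes and 0.427% of all 18723. The 4 elements are shown with 30 bases on each side, read along the gene, with the element in capitals.
Map3k6, chr4:133240607-133240679, plus strand: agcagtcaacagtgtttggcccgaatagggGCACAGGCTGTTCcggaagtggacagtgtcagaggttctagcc
Mt1, chr8:94178965-94179037, plus strand: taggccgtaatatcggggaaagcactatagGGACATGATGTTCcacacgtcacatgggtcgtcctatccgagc
Suox, chr10:128673922-128673994, minus strand: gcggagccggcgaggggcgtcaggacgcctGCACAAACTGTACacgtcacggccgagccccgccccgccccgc
Sgk1, chr10:21993672-21993744, plus strand: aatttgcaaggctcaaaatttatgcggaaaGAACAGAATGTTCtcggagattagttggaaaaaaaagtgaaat

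The elements began 181, 94, 46 and 188 bases before the start of Map3k6, Mt1, Suox and Sgk1. Map3k6, a kinase of the stress pathways, was at 1.15, 0.79, 0.91 and 1.05 in dex and -0.46, -0.29, -0.72 and -1.09 in DMSO, and rose by 1.62 ± 0.18. Sgk1 was at 0.25, 0.46, 0.39 and 0.28 in dex and -0.30, -0.48, -0.39 and -0.39 in DMSO. Suox, which encodes sulfite oxidase, was at 0.91, 0.80, 0.88 and 0.90 in dex and 0.03, -0.44, -0.50 and -0.54 in DMSO, and rose by 1.24. In each of these genes every dex array was above every DMSO array, which held for the quoted probe of every gene that rose. Of the 14 largest rises 10 had a window, and 0 of these held the full element. The partial site AGAACA overlaps the full element in the Sgk1 window. It was in windows of 13.3% of risen, 14.7% of fallen and 18% of all genes. The AP-1 site TGANTCA was in those of 9.09%, 2.94% and 8.22%, the cyclic AMP response element TGACGTCA in 2.80%, 4.41% and 2.71%, and the E-box CACGTG in 12.6%, 8.82% and 9.71%. The NF-kappaB site was in 6.99%, 8.82% and 5.73%. A match of letters shows no binding, and sequence outside these windows was not used here.

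The array held several probes for 153 of the 294 genes and a single probe for 141. Of all 19640 genes 6325 had several. As 1 passing probe was enough, a gene with more probes had more chances to be counted. The shares of families were not adjusted for this. Of the 153, all probes passed for 25, more than 1 but not all for 16, and 1 alone for 112. Direction was shared far more often, since in 138 of the 153 genes all probes had the same sign. Besides the quoted probe, which is the one with the smallest p, these genes had 231 other probes. Of these 216 had its sign, 53 passed, 150 had the same sign and at least 0.5 times the quoted size, and 48 changed by under 0.2. The median ratio of an other probe's change to the quoted one was 0.724. As the quoted probe was picked for its small p, it is expected to be among the larger ones.

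All probes passed in 20 of 109 rises and 5 of 44 falls with several probes. Rhob had 2 probes that both gave 2.32. Dok1 had 3 at 1.74, 1.59 and 1.55, and Adamts1 had 3 at 1.42, 1.61 and 1.42. Both probes of Tcim (2.21 and 1.98), Tead4 (1.93 and 1.09), a partner of YAP in Hippo signalling, and Peli1 (1.47 and 1.23), a ubiquitin ligase, also passed. The 5 falls with all probes were of Irf1, with 4 probes from -1.57 to -0.96, Kif21b (-1.18 and -0.96), Tgif1 (-0.90, -0.75 and -0.64), Ccn4 (-0.76 and -0.68) and Irs1 (-0.73 and -0.82). Tgif1 encodes a corepressor of TGF-beta signalling and Kif21b a motor protein of microtubules.

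Probes of 1 gene could differ widely among the largest rises. Tsc22d3 had 4 probes at 2.76, 1.11, 0.87 and -0.07, of which the first 3 passed. For Errfi1, Adcy3, Zcchc14 and Vdr the quoted probe alone passed. The second probe of Errfi1 gave -0.01, those of Adcy3 0.03 and -0.17 and that of Vdr 0.07, while that of Zcchc14 gave -0.38, in the opposite direction. Foxo3 had 3 probes between 1.37 and 1.46, of which 2 passed, and another at -0.08. Klf5 had 3 probes at 1.32, 0.60 and -0.13, of which the first alone passed. Among falls, the second probe of Socs5 gave -0.15, against -1.5, and that of Nr2f2 gave -0.07, against -0.76.

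The 36-hour arrays, which took no part in choosing these probes, were used to see whether flat probes, those that changed by under 0.2, stay flat. Of the 48 flat probes, 33 belonged to genes whose quoted probe passed at 36 h. In 9 of these 33 the flat probe passed in the direction of the quoted one at 36 h, 19 stayed under 0.2, 2 passed in the opposite direction, and 3 moved further without passing. The flat probe of Tsc22d3 gave 0.45 at 36 h (adjusted p = 0.029), that of Vdr gave -0.28 (adjusted p = 0.00893), opposite to the 2.17 of the quoted probe, and those of Errfi1 and Adcy3 gave -0.02, 0.02 and 0.08. Of the other probes that had passed at 2 h, 39 belonged to genes whose quoted probe passed at 36 h, and 34 of these passed then too, in the same direction. The median SD over the 36-hour arrays was 0.171 for flat probes, 0.269 for the quoted probes of the same genes and 0.134 for all probes.

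**Figure D4:**
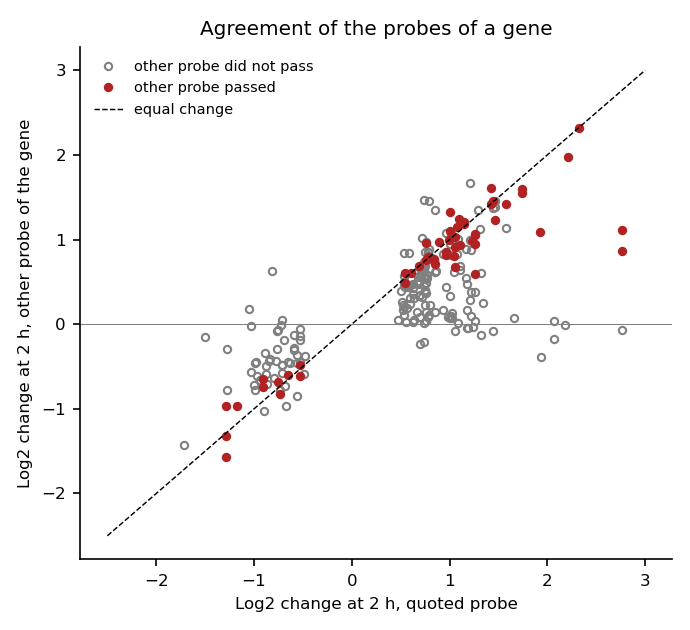
Log2 change at 2 h of each other probe against that of the quoted probe of its gene, for the 153 genes with several probes, with filled points for other probes that passed and a dashed line of equal change. Most of the 231 points share the sign of the quoted probe, and a row of points near 0 on the vertical axis reaches out to quoted changes above 2.

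A comparison with 36 h asked which early changes lasted. At 36 h dex raised 12.5% and lowered 11.1% of all genes, in limma on the 8 arrays of that time. Of the 194 early rises 137 also rose at 36 h, 53 did not pass and 4 fell, and their median change was 0.96 at 2 h and 0.59 at 36 h. Of the 100 early falls 48 fell at 36 h, 51 did not pass and 1 rose, and the median went from -0.84 to -0.31. The effect itself differed between the times for 3.48% of all genes, by the interaction in limma over all 16 arrays. It differed for 73 of the early rises, in 19 with a larger rise at 36 h and in 54 with a smaller or opposite value, and for 45 of the early falls, of which 44 were smaller or opposite at 36 h. As the genes were chosen for their change at 2 h, their values at that time are expected to be the larger ones by selection alone.

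The exception among falls was Id2, an inhibitor of basic helix-loop-helix factors. It went from -0.61 ± 0.08 at 2 h to -1.5 ± 0.17 at 36 h (difference -0.89, adjusted p = 0.0247). The 19 rises that grew included Aldh1a1, a retinaldehyde dehydrogenase, which went from 0.68 to 3.41 (difference 2.73, adjusted p = 2.08e-04), Zcchc14, from 1.94 to 4.63, and the interferon-induced gene Ifi204, from 0.80 to 3.17. Dpep1, a membrane dipeptidase, went from 0.76 to 2.95 and Plxdc1 from 1.93 to 4.11. In these genes the vehicle arrays differed more between times than the dex arrays. In the quoted probe of Zcchc14 the dex arrays were at 0.40, 0.80, 0.56 and 0.67 at 2 h and 1.17, 0.94, 0.95 and 0.85 at 36 h. The DMSO arrays were at -0.96, -1.31, -1.48 and -1.56 at 2 h and -3.65, -3.47, -3.60 and -3.87 at 36 h. The second probe of Zcchc14 showed no such rise, with -0.38 at 2 h and -0.09 at 36 h (limma adjusted p = 0.918 and 0.615). For Ifi204 the DMSO arrays lay between -0.45 and -0.06 at 2 h and between -2.43 and -2.20 at 36 h, and the dex arrays between 0.44 and 0.65 and between 0.62 and 1.08.

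Among rises, the largest drop between the times was that of Tcim. Its dex arrays stood at 0.89, 0.97, 0.98 and 0.96 at 2 h and at 0.10, 0.07, 0.20 and 0.02 at 36 h. The DMSO arrays moved too, from between -1.83 and -0.86 at 2 h to between -0.45 and -0.09 at 36 h. The change of Tcim went from 2.21 to 0.34 (difference -1.86, adjusted p = 2.13e-04), so that it still passed as a rise at 36 h (adjusted p = 0.0218). Other rises no longer passed at 36 h in the quoted probe. Csrnp1 went from 1.61 to 0.18, the planar polarity gene Prickle1 from 1.17 to -0.23 and the Ras-related gene Mras from 1.29 to 0.01, each with a difference that passed. The second probe of Mras gave 1.34 at 2 h without passing, and 0.51 at 36 h, where it passed (limma adjusted p = 0.00252). Adamts1, with all 3 probes, went from 1.42 to 0.24. Of the rises, 4 turned round and passed as falls at 36 h. Sox4 was at 1.09, 0.73, 0.89 and 0.99 in dex and between -0.04 and 0.11 in DMSO at 2 h, but at 0.00, -0.85, 0.10 and -0.16 in dex and between 0.51 and 0.68 in DMSO at 36 h. Its change went from 0.89 ± 0.10 to -0.83 ± 0.18, with dex replicate 2 the lowest array at 36 h. The others were Wdr92 (0.78 to -0.28), Arhgap20 (0.58 to -0.45) and Znrf1 (0.73 to -0.28), and the fall that turned into a rise was that of the adhesion gene Nectin2 (-0.63 to 0.28).

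Transient falls included Ccl7, whose dex arrays lay between -1.45 and -1.12 at 2 h and between -0.31 and 0.36 at 36 h. Its DMSO arrays lay between 0.24 and 0.90 at 2 h and between -0.46 and -0.16 at 36 h. Its change went from -1.87 to 0.32 (difference 2.19, adjusted p = 7.26e-05), while that of Cxcl5 went from -2.45 to -1.78, a difference that did not pass (0.68, adjusted p = 0.39). Slc40a1 went from -1.41 to -0.12 and Cxxc5 from -1.55 to -0.26. Among lasting effects, Zbtb16 went from 2.67 to 2.60, Rhob from 2.32 to 2.40 and Enc1 from -1.38 to -1.40, with differences of -0.07, 0.08 and -0.02 that did not pass. Glul went from 3.09 to 3.84 and Pcdh18 from -1.31 to -1.59, neither of which passed as a difference.

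**Figure D5:**
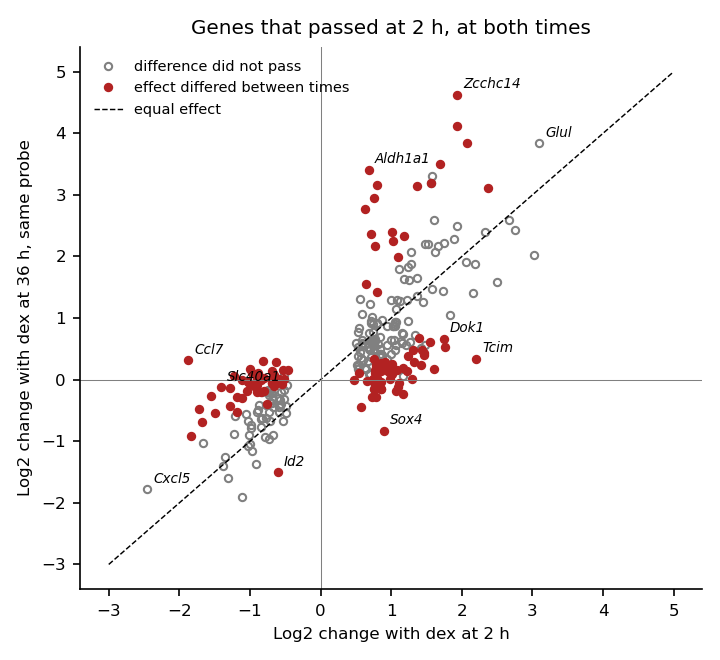
Log2 change with dex at 36 h against that at 2 h, in the same probe, for the 294 genes that passed at 2 h, with filled points where the effect differed between times and a dashed line of equal effect. Zcchc14 and Aldh1a1 lie far above the line, Tcim and Ccl7 near 0 on the vertical axis, and Sox4 on the opposite side of 0.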

How the data were processed

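The authors deposited 1 table of log ratios of sample (Cy5) over pool (Cy3), per the labels' dyes, which were read as log2 values. The design text names limma. The labels and header state neither log base nor background correction nor normalization. For the 39 most variable probes the median of the mean ratio of sample over pool was 1.00 with base 2, 1.13 with base e and 2.98 with base 10, and for the 384 most variable 0.976, 1.01 and 1.26, so base e is not settled against base 2. Under base e, log2 changes would be 1.44 times the printed ones. All 16 columns were mapped to samples. Of the values, 131 were missing, on dex 2 h replicates 2 to 4, and none in a quoted probe.

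Of 38467 probes, the platform annotation gave 29456 a single gene, 760 several and 8251 none. Symbols were updated by Entrez identifier from the RefSeq table of GRCm38.p6 for 28735 probes, and 721 kept the platform's symbol.

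limma 3.58.1 in R 4.3.3 (lmFit, eBayes) compared the groups over the 8 arrays of 2 h, because these are noisier than those at 36 h and a variance shared with 36 h would understate their error. P values were Benjamini-Hochberg adjusted over all probes. The interaction with time used 16 arrays. The method was tested on simulated data. No scan or slide batch is named in the sources used here, signal over background is unknown, and the number of arrays limits the precision. P values set the difference between groups against the spread among the 4 samples of each group.

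Genes were named by rule: the 14 largest rises and falls, the 6 largest each way with all probes passing, the 6 with the widest disagreement between probes, up to 2 per family and direction, the 5 largest differences between times each way, and Nr3c1, Fkbp5, Tsc22d3, Per1, Cebpb and Cebpd. Further family members that passed, and the few genes behind small counts, were named after their values were seen. The 53 families are sets of gene symbols, some of which are not reported here. The comparison, families and rules were chosen with earlier results of these data known. Alternatives covered the arrays in the fit, weights, scaling, probes, the call rule and leaving out arrays.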

Additional observations from a re-analysis of the deposited data

Results flagged for a closer look

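In 19 cases among 122 named genes and 2 groups (244 combinations), 1 array stood apart from the other 3 of its group by Dixon's criterion, which chance meets in about 1 of 20 groups. DMSO replicate 1 did so for 7 genes, dex replicates 1 and 2 for 5 each and DMSO replicate 4 for 2. The log2 ratios on DMSO replicate 1 were Angptl4 at 0.85 (others 0.37 to 0.38), Bcl2l11 at 0.61 (others 0.03 to 0.08), Ddit4 at -0.35 (others -0.87 to -0.80), Fgf7 at 0.70 (others -0.06 to -0.01), Nfkbia at -0.85 (others -0.34 to -0.24), Tsc22d3 at -0.97 (others -1.69 to -1.59) and Zfp592 at -0.088 (others -0.39 to -0.38). On DMSO replicate 4 they were Aldh1a1 at 0.031 (others -0.25 to -0.21) and Tead4 at -1.37 (others -0.96 to -0.88). On dex replicate 1 they were Angptl4 at -0.76 (others -1.44 to -1.34), Dusp6 at 0.85 (others 0.37 to 0.42), Hic1 at -0.29 (others -0.54 to -0.53), Lifr at 0.066 (others 0.24 to 0.26) and Tent5b at 0.57 (others 1.02 to 1.10). On dex replicate 2 they were Acvrl1 at 1.36 (others 0.81 to 0.90), Gadd45g at 1.37 (others 1.09 to 1.12), Klf10 at -0.15 (others -0.45 to -0.42), Mt2 at 0.61 (others 1.02 to 1.06) and Slc39a14 at 0.81 (others 0.58 to 0.61). Of these genes, Dusp6, Bcl2l11 and Fgf7 passed in 1 of the 8 fits with 1 array left out.

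For 53 of the 122 named genes the effect of dex differed between 2 and 36 h in the interaction test in limma, with adjusted p under 0.05. The values in brackets are the log2 effect at 36 h minus that at 2 h, in the quoted probe of each gene. Rises that were larger at 36 h were those of Adcy3 (1.77), Aldh1a1 (2.73), Dpep1 (2.19), Fkbp5 (0.74), Ifi204 (2.37), Plxdc1 (2.18) and Zcchc14 (2.69). Rises that were smaller or turned into lower values were those of Adamts1 (-1.18), Arhgap20 (-1.03), Csrnp1 (-1.44), Dok1 (-1.07), Dusp6 (-0.72), Fbxl14 (-0.76), Foxo3 (-0.96), Gadd45g (-1.22), Klf5 (-1.04), Mertk (-0.82), Mras (-1.29), Peli1 (-1.03), Prickle1 (-1.39), Rel (-0.73), Serpinb9 (-0.68), Sik1 (-0.59), Sox11 (-1.17), Sox4 (-1.72), Tcim (-1.86) and Zfp592 (-0.86). Falls that were smaller or turned into higher values were those of Angptl4 (1.24), Bhlhe40 (1.10), Ccl2 (0.92), Ccl7 (2.19), Cxxc5 (1.29), Dusp4 (1.14), Fosl1 (0.84), Gadd45a (0.64), Hic1 (0.65), Hmox1 (0.62), Irf1 (0.86), Kcnk3 (0.61), Kif21b (0.90), Klf10 (0.89), Klf3 (0.82), Mmp28 (0.90), Nr2f2 (0.36), Pdgfb (1.17), Plk2 (0.99), Slc40a1 (1.29), Socs3 (0.80), Socs5 (0.97), Tgif1 (0.71), Tnfaip2 (1.09) and Tnfrsf12a (0.63). The fall of Id2 was larger (-0.89). Other probes of a gene could go the other way among the rises listed as smaller. Another probe of Klf5 went from 0.60 at 2 h to 1.61 at 36 h, and that of Dusp6 from 0.62 to 1.01. Both of these probes passed at 36 h and not at 2 h.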

How the results depend on the processing

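Counts of genes depended most on the arrays and on how their noise was modelled. Fitting all 16 arrays gave 625 genes (387 rises, 238 falls, 85 with all of several probes), array weights on the 8 arrays 754 (443, 311, 115), and both together 737 (436, 301, 105). Of the 194 rises and 100 falls, array weights kept 194 and 100. Leaving out 1 array gave 135 to 338 genes, 100 to 251 rises, 34 to 113 falls and 7 to 32 genes with all of several probes. With probes of low SD at 36 h removed, 39 genes had all of several probes passing. Robust variances, scale and quantile normalization between arrays, means over a gene's probes, log-odds above 0 and probes without missing values gave 279 to 321 genes. The 5 quieter arrays, an alternative chosen after seeing the data, gave 297.

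The labels give both groups replicate numbers 1 to 4. Same-numbered arrays had correlations of their deviations of -0.10, 0.19, 0.04 and 0.26, so the numbers were not taken as pairs. With a replicate block 76 genes passed (55 rises, 21 falls, 3 with all of several probes), and 392 differed between times. Without it 683 differed, and the count was 1847 with array weights and 1408 with scale normalization. The cause of these shifts was not tested.

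No named gene changed direction under any of these alternatives that gave it a value. The filter on SD at 36 h gave values for 106 of the 122. Of the 122 named genes, 54 kept their side of the threshold under the block, 71 without dex replicate 3 and 122 with array weights.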

Other observations

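Several changed genes were in no family list examined and are given as values, chosen after these were seen. Rab3d, a small GTPase of secretory vesicles, rose by 1.89, with dex arrays at 0.61, 1.0, 0.69 and 0.66 and DMSO arrays at -0.97, -1.08, -1.16 and -1.38, and by 2.29 at 36 h. Ctla2a and Ctla2b, close paralogs whose probes may not tell them apart, rose by 1.58 and 1.56 at 2 h and by 3.31 and 3.20 at 36 h. Pfkfb3, whose enzyme makes the activator of phosphofructokinase, rose by 1.17, its relative Pfkfb4 by 0.75 and Nampt, which acts in NAD synthesis, by 1.01, each with 1 of 2 probes passing. Cdo1 (1.45), a cysteine dioxygenase, rose together with the sulfite oxidase gene Suox (1.24), both of which act in sulfur amino acid breakdown. Of factors outside the family lists, Gata2 (-0.91), a repressor of adipocyte differentiation, and the homeobox gene Prox1 (-0.72) fell. The second probe of Prox1 gave -0.01 and did not pass.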
